A study of Rattus norvegicus with 82 samples.

Results

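The expression of 10 macrophage genes was followed in rat heart after dosing with compounds that bind tubulin: Stab1, Lyve1, Mrc1, Cd163, Cd14, Cd68, Csf1r, C1qa, C1qb and Fcgr2b. They were taken by symbol from the annotation of the array, and where a gene had several probe sets the one brightest on average over the 82 arrays was used. All 10 were found among 14217 gene symbols on the array and all 10 were among the 11319 genes tested. The set and the other gene lists were chosen with earlier results of these data known. Counts of called genes set beside the share of all genes are therefore descriptions, and not tests of the set. Each array held heart RNA of 1 male Wistar (Crl:Wi(Han)) rat that had received 1 intravenous dose, and tissue was taken 6 or 24 h later. At each time the groups were vinblastine (0.5 or 3 mg/kg), vincristine (0.1 or 1 mg/kg), colchicine (0.2 or 2 mg/kg), and 0.9% saline, the vehicle of all 3 compounds. Each group had 6 animals, except that each vincristine 0.1 mg/kg group had 5. The doses differ between compounds, so values of different compounds are given side by side and are not compared. The labels do not say whether blood was flushed from the hearts, and they give no age.

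The heart holds resident macrophages that sit between muscle cells and along vessels, and monocytes from blood can enter and become macrophages after injury. Resident cardiac macrophages are known for scavenger and endocytic receptors on their surface (STAB1, LYVE1, MRC1, CD163), for the growth factor receptor CSF1R that keeps them alive, and for making C1q, the first component of the classical complement pathway. CD14, a co-receptor for bacterial lipopolysaccharide, is strong on blood monocytes and is also made by neutrophils and other cells. CD68 is a lysosomal glycoprotein of phagocytes, and FCGR2B is the inhibitory Fc receptor for IgG. None of the 10 is private to macrophages: STAB1 and LYVE1 are also made by some endothelial cells.

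The label was checked against other markers. Of 18 general leukocyte and myeloid genes measured, 17 passed the filter on dim probe sets, among them Ptprc, Tyrobp, Aif1 and Ctss, while Adgre1, the gene of F4/80, did not. Of 12 other genes of resident macrophages on the array 11 passed, and Cx3cr1 did not. Of 16 genes of monocytes and recruited macrophages 13 passed. Over the whole array 11319 of 14217 gene symbols passed the same filter, so passing it is a weak check of the label. Ccr2, the receptor that draws monocytes out of blood, was below the filter, so recruitment was not read from its defining gene. The summed intensity of 11 cardiomyocyte genes was 172200 to 239300 over all 82 arrays.

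All values below use the arrays as labelled. For 10 arrays the distance over all genes to their own group exceeded the distance to some other group by more than 1.3 times. At the higher doses these were vinblastine 3 mg/kg at 6 h replicate 1, vincristine 1 mg/kg at 6 h replicate 3, colchicine 2 mg/kg at 6 h replicate 4 and colchicine 2 mg/kg at 24 h replicate 1. At the lower doses they were vinblastine 0.5 mg/kg replicate 6 at 6 h and replicate 5 at 24 h, vincristine 0.1 mg/kg replicate 5 at 24 h, colchicine 0.2 mg/kg replicates 1 and 6 at 6 h, and colchicine 0.2 mg/kg replicate 6 at 24 h. No saline array was among them. Whether samples had been exchanged was not tested. Members other than Fcgr2b whose call against saline changed without these 10 arrays, and counts that moved by over 1.5 times, are given both ways. All comparisons with saline at 1 time share the same 6 saline animals, so they are not independent of each other.

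The deposited values are linear intensities, and changes are differences of log2(intensity + 16) with their standard error, treated over saline. The added 16 understates the change of dim genes. A gene was called where limma's adjusted p over all 11319 genes was under 0.05. Fcgr2b passed the filter on dim probe sets on only 7 of 82 arrays and Cd163 on 39. On the saline arrays Fcgr2b passed on 0 of 12 and Cd163 on 3 of 12. Fcgr2b entered the test only through the arrays on which it was bright, so that a called difference of those arrays from saline was built into its entry. Its levels are therefore given as a description, and its calls are named where they enter a count but support nothing. Its probe set was matched to a single gene, and reading of the related Fc receptor transcripts by it was not tested.

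The stretches of DNA before the start sites of 4 members are shown because Lyve1 and Mrc1 both rose at 24 h with the vinca alkaloids, while C1qa and C1qb, which lie in a cluster on chromosome 5 with C1qc between them, shifted against each other within animals. They are the 200 bases before the annotated start from RefSeq (GRCr8), written 5′ to 3′ in the direction of the gene. Capitals mark GAGGAA, the core site of the myeloid factor PU.1, or its reverse complement TTCCTC, and TGCTGAC, part of the site of Maf factors. Lyve1 lies on the minus strand (chr1:174410978-174411177) and Mrc1 on the plus strand (chr17:82157525-82157724).
Lyve1: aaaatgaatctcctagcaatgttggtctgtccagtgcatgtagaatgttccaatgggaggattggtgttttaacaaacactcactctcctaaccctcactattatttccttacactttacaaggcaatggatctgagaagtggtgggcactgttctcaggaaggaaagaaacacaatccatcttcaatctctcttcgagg
Mrc1: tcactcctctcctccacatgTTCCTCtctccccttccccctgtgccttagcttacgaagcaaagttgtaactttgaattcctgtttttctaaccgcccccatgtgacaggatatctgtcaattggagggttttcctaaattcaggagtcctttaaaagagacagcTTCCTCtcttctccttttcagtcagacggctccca
C1qa and C1qb both lie on the minus strand (chr5:154419934-154420133 and chr5:154407828-154408027).
C1qa: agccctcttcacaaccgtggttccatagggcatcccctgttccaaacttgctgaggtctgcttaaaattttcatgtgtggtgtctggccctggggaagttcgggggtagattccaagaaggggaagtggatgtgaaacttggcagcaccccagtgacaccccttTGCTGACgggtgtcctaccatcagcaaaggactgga
C1qb: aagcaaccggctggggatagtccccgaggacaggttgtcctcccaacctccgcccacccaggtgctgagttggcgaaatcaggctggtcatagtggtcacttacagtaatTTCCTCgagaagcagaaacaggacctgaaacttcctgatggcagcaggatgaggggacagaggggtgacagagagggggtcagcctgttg
Over the 9 members with an entry in the table, 6 had GAGGAA on either strand in this window, against 19% of 33469 promoters. TGCTGAC was in 1 of 9, C1qa, against 2.95% of all. The windows of Stab1, Cd163, Cd14 and Csf1r overlapped an annotated gene. Those of Stab1, Cd14 and Csf1r were among the 6 with a match to the PU.1 core. A match of letters is a description and not evidence of binding, and no binding was measured here. The Mrc1 window held 2 matches to the PU.1 core and the Lyve1 window held 0, and both genes rose at 24 h with both vinca alkaloids.

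At 6 h the higher doses lowered a part of the set and raised Cd14. Stab1, Csf1r and C1qa fell with all 3 compounds, C1qb fell with vincristine, and Cd14 rose with all 3. With vinblastine 3 mg/kg 2 members rose, Fcgr2b among them, and 3 fell, where 15.7% of all genes tested rose and 7.67% fell. With vincristine 1 mg/kg 1 rose and 4 fell, where 2.05% of all genes rose and 1.25% fell. With colchicine 2 mg/kg 1 rose and 3 fell, where 4.89% of all genes rose and 4.37% fell. The median log2 change of the 10 members was -0.14, -0.41 and -0.13 for vinblastine, vincristine and colchicine, and that of all genes was 0.0061, 0.011 and -0.0039. Without the arrays set apart 1 member rose with each compound, and 5 fell with vinblastine, 8 with vincristine and 3 with colchicine. The shares of all genes that then rose and fell were 10.3% and 5.52% with vinblastine, 7.2% and 5.12% with vincristine, and 9.47% and 9.87% with colchicine.

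At 24 h the direction was mostly upward. With vinblastine 3 mg/kg 5 members rose and 0 fell, where 5.29% of all genes rose and 4.28% fell. With vincristine 1 mg/kg 6 rose and 0 fell, where 12% of all genes rose and 18.4% fell. With colchicine 2 mg/kg 4 rose, Fcgr2b among them, and 2 fell, where 19.3% of all genes rose and 25.3% fell. The colchicine share is not far from that of all genes. The median log2 change of the members was 0.73, 0.57 and 0.17 for vinblastine, vincristine and colchicine, and that of all genes was -0.0053, -0.011 and 0.00019. When the arrays set apart were left out, 7 members rose and 0 fell with vinblastine, 7 rose and 1 fell with vincristine, and 4 rose and 3 fell with colchicine. Fcgr2b was among those rises with vincristine and with colchicine. The shares of all genes were then 8.01% and 7.75%, 14.4% and 20.5%, and 22.4% and 28.2%.

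**Figure D1:**
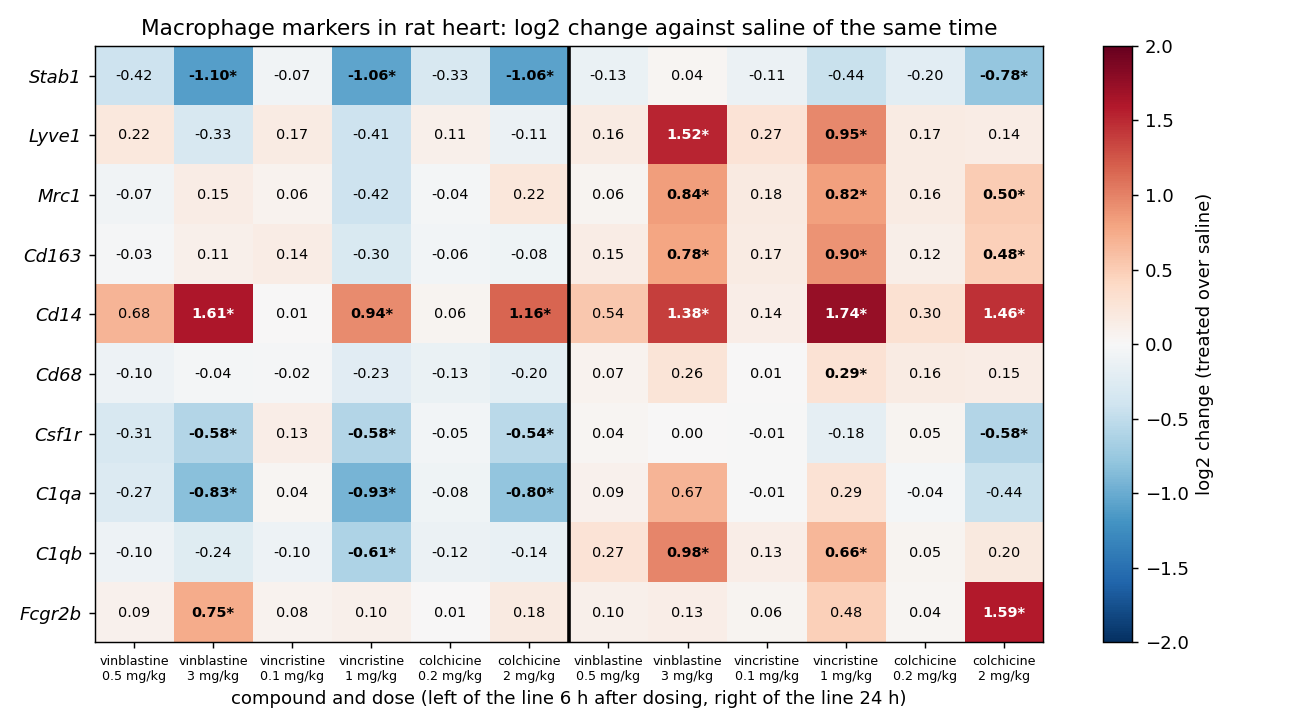
Log2 change against saline of the same time for the 10 macrophage markers (rows), by compound and dose (columns, 6 h left of the line and 24 h right of it); colour and number give the change, and a star marks an adjusted p under 0.05. At 6 h the higher doses show falls in Stab1, Csf1r and C1qa beside a rise in Cd14, and at 24 h rises in Cd14, Mrc1 and Cd163, while the lower doses carry no star.

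Stab1, a scavenger receptor that takes up modified proteins and cell remnants, fell furthest among the receptors at 6 h. Its lowest, median and highest intensities were 67.3, 81.2 and 94.1 in vinblastine 3 mg/kg hearts, 55.1, 73.0 and 143 in vincristine 1 mg/kg hearts and 57.9, 72.2 and 165 in colchicine 2 mg/kg hearts, against 135, 201 and 276 in saline hearts. All 6 vinblastine animals and 5 of 6 in each of the vincristine and colchicine groups lay below every saline animal. The exceptions were the arrays set apart, vincristine replicate 3 and colchicine replicate 4. On the log2 scale the changes were -1.10 ± 0.21 (adjusted p = 9.98e-05), -1.06 ± 0.21 (adjusted p = 0.00521) and -1.06 ± 0.21 (adjusted p = 0.000409) for vinblastine, vincristine and colchicine. With the set-apart arrays removed they were -1.09 (adjusted p = 4.35e-08), -1.20 (adjusted p = 8.27e-09) and -1.24 (adjusted p = 8.86e-10). In bulk tissue fewer cells of a type and less RNA per cell cannot be told apart, here and below.

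Endothelial genes were read beside Stab1, since endothelial cells also make it. Of 14 blood endothelial genes tested, 2 fell with each compound at 6 h, and 4, 2 and 2 rose with vinblastine, vincristine and colchicine. Over all genes tested 7.67%, 1.25% and 4.37% fell and 15.7%, 2.05% and 4.89% rose in the same order. Sox18, a transcription factor of endothelial cells, changed by -0.70 ± 0.20 (adjusted p = 0.00766), -0.67 ± 0.20 (adjusted p = 0.0476) and -1.15 ± 0.20 (adjusted p = 0.00011) on the log2 scale. Emcn, an endothelial sialomucin, fell with colchicine, by -0.65 ± 0.12 (adjusted p = 0.000167). Other genes of the list went the other way. Esam rose with all 3 compounds, by 0.72 ± 0.13 (adjusted p = 5.34e-05), 0.46 ± 0.13 (adjusted p = 0.0316) and 0.53 ± 0.13 (adjusted p = 0.00449). Cldn5 rose with vinblastine by 0.64 ± 0.16 (adjusted p = 0.00243) and Aqp1 with vincristine by 0.47 ± 0.12 (adjusted p = 0.0197). The summed intensity of the 14 genes was 13120 to 15900 in vinblastine hearts, 12360 to 15500 in vincristine hearts and 11710 to 14710 in colchicine hearts, against 10590 to 13170 in saline hearts. Of 8 lymphatic genes tested 1 fell with each compound, Prox1, the transcription factor that sets lymphatic identity, at -0.98 ± 0.16 (adjusted p = 1.08e-05), -0.56 ± 0.16 (adjusted p = 0.0333) and -0.79 ± 0.16 (adjusted p = 0.000507), while 4 rose with vinblastine and 0 with the others. Without the arrays set apart the rises were 2, 2 and 1. The sum of the 9 lymphatic genes measured was 1732 to 2968, 1773 to 2257 and 1570 to 2247, against 1883 to 2158 in saline hearts. The part of endothelial cells in the Stab1 result was not tested.

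The other endocytic receptors did not pass the test at 6 h with all arrays. Lyve1, a hyaluronan receptor of lymphatic vessels and of a perivascular class of macrophages, had 187, 221 and 326 in vinblastine hearts, 135, 224 and 337 in vincristine hearts and 205, 283.5 and 305 in colchicine hearts, against 234, 279.8 and 439.6 in saline hearts. These groups overlapped with saline. In limma's fit the changes were -0.33 ± 0.18 (adjusted p = 0.188), -0.41 ± 0.18 (adjusted p = 0.189) and -0.11 ± 0.18 (adjusted p = 0.797). Mrc1, the mannose receptor, and Cd163, the receptor for haemoglobin bound to haptoglobin, had log2 changes between -0.42 ± 0.19 (adjusted p = 0.224), that of Mrc1 with vincristine, and 0.22 ± 0.19 (adjusted p = 0.578), that of Mrc1 with colchicine. With the arrays set apart left out, Lyve1 was called lower with vinblastine at -0.42 (adjusted p = 0.04). With vincristine, Lyve1 at -0.53 (adjusted p = 0.00866), Mrc1 at -0.49 (adjusted p = 0.0335) and Cd163 at -0.34 (adjusted p = 0.0338) were then called lower as well. In the colchicine hearts none of these receptors was called lower either way.

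Csf1r, the receptor for CSF1 and IL-34 on which macrophages depend, fell with all 3 compounds at 6 h. Its intensities were 128, 187.5 and 203 in vinblastine hearts, 128, 156.5 and 298 in vincristine hearts and 154.5, 167 and 263 in colchicine hearts, against 239.8, 272 and 301 in saline hearts. All 6 vinblastine, 4 of 6 vincristine and 5 of 6 colchicine animals lay below every saline animal. Treated over saline, the log2 changes were -0.58 ± 0.14 (adjusted p = 0.00133), -0.58 ± 0.14 (adjusted p = 0.0128) and -0.54 ± 0.14 (adjusted p = 0.00567). Once the arrays set apart were dropped, they were -0.50 (adjusted p = 2.02e-05), -0.72 (adjusted p = 7.55e-09) and -0.64 (adjusted p = 5.2e-08). The ligand genes were measured too: Csf1 and Il34 did not pass the test at 6 h with any of the 3 compounds, with log2 changes between -0.07 and 0.02.

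C1qa and C1qb encode chains of the same C1q molecule, yet they moved by unequal amounts. C1qa intensities at 6 h were 149, 165 and 397 in vinblastine hearts, 93.2, 149 and 420.2 in vincristine hearts and 155, 173 and 333 in colchicine hearts, against 266, 369 and 449.8 in saline hearts. In each treated group the highest value was that of the array set apart, and 5 vinblastine, 4 vincristine and 5 colchicine animals lay below every saline animal. The log2 changes of C1qa were -0.83 ± 0.25 (adjusted p = 0.00996), -0.93 ± 0.25 (adjusted p = 0.0222) and -0.80 ± 0.25 (adjusted p = 0.0285). When the arrays set apart were left out, they were -1.03 (adjusted p = 9.92e-07), -1.16 (adjusted p = 9.85e-08) and -0.94 (adjusted p = 5.39e-06).

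C1qb intensities were 276, 335 and 589 in vinblastine hearts, 138, 282.5 and 459 in vincristine hearts and 356, 381 and 448 in colchicine hearts, against 365.5, 447 and 514 in saline hearts. The groups overlapped, with 4 vinblastine, 4 vincristine and 2 colchicine animals below every saline animal. The log2 changes of C1qb were -0.24 ± 0.17 (adjusted p = 0.303), -0.61 ± 0.17 (adjusted p = 0.0273) and -0.14 ± 0.17 (adjusted p = 0.711), of which only vincristine passed the test. With the arrays set apart left out, vinblastine passed it too, at -0.38 (adjusted p = 0.0379). Within each animal the C1qa probe set was compared with its own C1qb probe set as a log2 difference, of which only the shift between groups is read. Lowest, median and highest differences at 6 h were -1.04, -0.84 and -0.55 with vinblastine, -0.93, -0.64 and -0.12 with vincristine and -1.18, -0.998 and -0.27 with colchicine, against -0.44, -0.28 and 0.01 with saline. All 6 vinblastine animals lay below every saline animal. The shift shows unequal change of the paired probe sets and was not tested further.

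Cd14 went the opposite way at 6 h. Its intensities were 229.5, 390.5 and 472 in vinblastine hearts, 114, 227 and 444 in vincristine hearts and 94.8, 317 and 337.5 in colchicine hearts, against 83.3, 111 and 136 in saline hearts. All 6 vinblastine animals and 5 of 6 in each of the others lay above every saline animal, and the exceptions were again vincristine replicate 3 and colchicine replicate 4. The fitted changes (log2) were 1.61 ± 0.24 (adjusted p = 2.46e-06), 0.94 ± 0.24 (adjusted p = 0.015) and 1.16 ± 0.24 (adjusted p = 0.000545), and without the arrays set apart 1.54 (adjusted p = 3.11e-11), 1.12 (adjusted p = 5.21e-07) and 1.43 (adjusted p = 2.07e-10).

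Neutrophil genes moved with Cd14. All 5 of the neutrophil genes tested rose with vinblastine at 6 h, 1 with vincristine and 4 with colchicine, and without the arrays set apart 4 rose with vincristine. The shares of all genes that rose were 15.7%, 2.05% and 4.89%, and 7.2% with vincristine without the arrays set apart. Camp, 1 of the 5, had a mean of 36.1 over all arrays, below the lowest filter threshold of any array, 38.5. Genes that dim enter the test only through the arrays on which they are brighter, so rises can be built into these counts. The counts are therefore given as a description. S100a9, a calcium-binding protein that neutrophils hold in bulk, changed by 3.68 ± 0.53 (adjusted p = 2.46e-06), 2.11 ± 0.53 (adjusted p = 0.0155) and 2.88 ± 0.53 (adjusted p = 0.000198) on the log2 scale. The summed intensity of the 11 measured genes of 14 listed was 1575 to 8545 in vinblastine hearts, 441.5 to 1663 in vincristine hearts and 474 to 1965 in colchicine hearts, against 437 to 568 in saline hearts. Lcn2 and S100a9, with means of 689 and 263 over all arrays, were the brightest of the 11 and weigh most in the sum. The sum is therefore not a measure of neutrophil number. The defining receptors Csf3r, Cxcr1 and Cxcr2 were below the filter, as were Mmp8, Mmp9 and Padi4. Summed intensities of 18 leukocyte and myeloid genes were 4079 to 5013, 3677 to 5028 and 3832 to 4406 in the treated groups in the same order, against 3623 to 4720 in saline hearts. The part of neutrophils in the Cd14 result was not tested.

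Cd68 and Fcgr2b gave little at 6 h. Cd68 log2 changes lay between -0.23 and -0.04 and passed the test with none of the compounds. Only without the arrays set apart was Cd68 called lower with vincristine, at -0.29 (adjusted p = 0.0304). Fcgr2b was called higher with vinblastine at 0.75 ± 0.26 (adjusted p = 0.0306), and the call rests on 1 array. Its intensities were 25.6, 30.0 and 385 in vinblastine hearts, against 19.9, 22.8 and 24.7 in saline hearts. Vinblastine replicate 1, an array set apart, held the highest value, and the other 5 animals lay between 25.6 and 33.5. Over all genes, the other group nearest to that array was colchicine 2 mg/kg at 24 h, with a distance ratio of 1.65. Once the arrays set apart were dropped, the change was 0.22 (adjusted p = 0.318). The same array had the highest Mrc1 value of its group at 618, the highest Cd163 value at 145 and the highest neutrophil sum at 8545.

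The vincristine calls at 6 h were the least firm of the set. Csf1r, C1qa, C1qb and Cd14 each lost their call when vincristine replicate 4 or replicate 5 was left out, and the count of called members then fell to 1, Stab1. Without replicate 6 the count was 2. C1qa with colchicine lost its call without any of 4 colchicine animals or 3 saline animals, and its adjusted p with all arrays was 0.0285. Stab1 kept its call with all 3 compounds whichever array was left out.

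**Figure D2:**
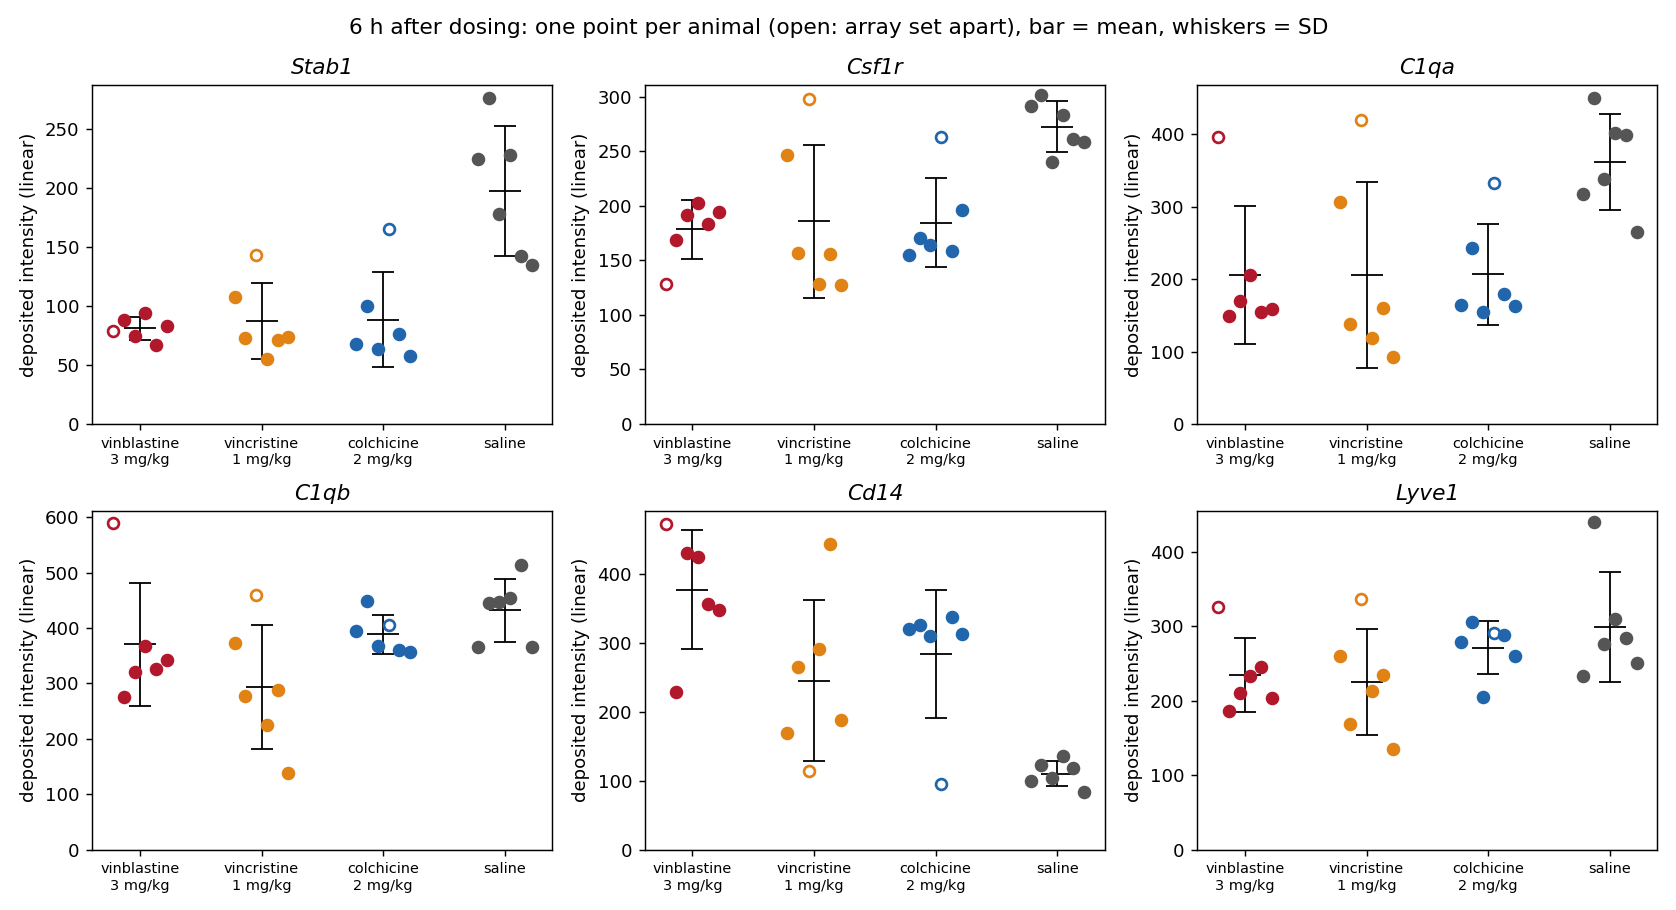
Deposited linear intensity of 6 macrophage markers at 6 h, by animal, for the higher doses and saline; points are animals, open points are arrays set apart, and bars with whiskers are means and SD (n = 6 per group). The 6 vinblastine animals lie between 67.3 and 94.1 for Stab1 and between 229.5 and 472 for Cd14, below and above all 6 saline animals.

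By 24 h Lyve1 had risen with both vinca alkaloids. Its intensities were 627, 730 and 959.5 in vinblastine 3 mg/kg hearts, 365, 493 and 661 in vincristine 1 mg/kg hearts and 176, 296 and 398.5 in colchicine 2 mg/kg hearts, against 208, 255 and 303 in saline hearts. All 6 vinblastine and all 6 vincristine animals lay above every saline animal, while the colchicine animals overlapped with saline. Against saline the log2 changes were 1.52 ± 0.18 (adjusted p = 4.42e-09), 0.95 ± 0.18 (adjusted p = 2.51e-05) and 0.14 ± 0.18 (adjusted p = 0.556). A further Lyve1 probe set changed by 1.67, 1.08 and 0.19 in the same order (adjusted p = 1.95e-14, 1.65e-08 and 0.278). Lyve1 also marks lymphatic vessels, so the other lymphatic genes were read beside it. Of 8 tested, 0 were called with vinblastine (2 rose and 1 fell without the arrays set apart), 3 rose and 1 fell with vincristine, and 5 rose and 2 fell with colchicine, in which Lyve1 did not pass the test. Over all genes tested 5.29% rose and 4.28% fell with vinblastine, 12% and 18.4% with vincristine, and 19.3% and 25.3% with colchicine. The summed intensity of all 9 lymphatic genes was 2034 to 2792, 2261 to 2537 and 2014 to 2886, against 2011 to 2658 in saline hearts.

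Mrc1 rose with all 3 compounds at 24 h. Intensities were 234, 315 and 392.5 in vinblastine hearts, 218, 341 and 364 in vincristine hearts and 149, 251 and 350.3 in colchicine hearts, against 148, 164 and 209 in saline hearts. Every vinblastine and vincristine animal and 4 of 6 colchicine animals lay above every saline animal. The log2 changes were 0.84 ± 0.19 (adjusted p = 0.0019), 0.82 ± 0.19 (adjusted p = 0.000641) and 0.50 ± 0.19 (adjusted p = 0.0281). The colchicine call was lost without colchicine replicate 2, 4 or 5 or without saline replicate 1, and it was 0.54 (adjusted p = 0.00342) without the arrays set apart.

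Cd163 rose beside it. Intensities were 52.3, 65.2 and 99.1 in vinblastine hearts, 57.3, 77.8 and 90.9 in vincristine hearts and 33.5, 52.2 and 74.8 in colchicine hearts, against 28.6, 32.8 and 36.6 in saline hearts. All vinblastine and vincristine animals and 5 colchicine animals lay above every saline animal. On the log2 scale the changes were 0.78 ± 0.15 (adjusted p = 0.000203), 0.90 ± 0.15 (adjusted p = 4.18e-06) and 0.48 ± 0.15 (adjusted p = 0.00759). At 24 h Cd163 was above the filter on all 6 vinblastine, all 6 vincristine and 4 of 6 colchicine arrays, against 0 of 6 saline arrays.

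Hmox1, the haem-degrading enzyme that acts downstream of CD163, rose at 24 h by 1.37 ± 0.29 (adjusted p = 0.00052), 1.49 ± 0.29 (adjusted p = 3.7e-05) and 2.32 ± 0.29 (adjusted p = 7.96e-10) with vinblastine, vincristine and colchicine. It had also risen at 6 h with vinblastine at 1.45 ± 0.29 (adjusted p = 0.000151) and with colchicine at 1.20 ± 0.29 (adjusted p = 0.00315), while Cd163 had not. With vincristine at 6 h Hmox1 was at 0.81 ± 0.29 (adjusted p = 0.0961), and without the arrays set apart it was called higher at 0.98 (adjusted p = 5.45e-08). Of 5 tested genes of haem handling, Hmox1 was the only one called with vinblastine or colchicine at 24 h, and Slc40a1, the iron exporter, rose with vincristine by 0.38 ± 0.13 (adjusted p = 0.0169). Erythroid genes moved the other way at 24 h: 3 of 4 fell with each vinca alkaloid and 1 with colchicine, or 2 without the arrays set apart. Among all genes 4.28%, 18.4% and 25.3% fell with vinblastine, vincristine and colchicine, and 28.2% with colchicine without those arrays. Slc4a1, the red cell anion exchanger, changed by -1.002 ± 0.23 (adjusted p = 0.00144), -1.49 ± 0.23 (adjusted p = 3.64e-07) and -1.67 ± 0.23 (adjusted p = 6.78e-09). The sum of the 4 erythroid genes was 7883 to 11340, 6432 to 10680 and 9073 to 12430, against 12160 to 14200 in saline hearts. Their part in the Cd163 result was not tested.

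Stab1 did not follow the other receptors upward. Its intensities at 24 h were 117, 143 and 254 in vinblastine hearts, 83.9, 112 and 124.5 in vincristine hearts and 51.8, 79.0 and 162 in colchicine hearts, against 128, 156.5 and 168 in saline hearts. Vinblastine animals overlapped with saline, all 6 vincristine animals lay below every saline animal, and 5 of 6 colchicine animals did. In limma's fit the changes were 0.04 ± 0.21 (adjusted p = 0.947), -0.44 ± 0.21 (adjusted p = 0.108) and -0.78 ± 0.21 (adjusted p = 0.00165). With the set-apart arrays removed vincristine was called lower at -0.44 (adjusted p = 0.0122) and colchicine was at -0.95 (adjusted p = 1.81e-07). Of the 14 blood endothelial genes 3 rose and 1 fell with vinblastine, 5 rose and 2 fell with vincristine, and 7 rose and 1 fell with colchicine at 24 h. Without the arrays set apart 6 rose and 2 fell with vinblastine and 7 rose and 2 fell with colchicine. With all arrays 5.29% of all genes rose and 4.28% fell with vinblastine, 12% and 18.4% with vincristine, and 19.3% and 25.3% with colchicine.

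Cd14 remained high at 24 h. It had 225, 277 and 435 in vinblastine hearts, 279.6, 397 and 426 in vincristine hearts and 151, 343 and 462 in colchicine hearts, against 89.4, 98.4 and 128 in saline hearts. Every animal given a higher dose lay above every saline animal. Treated over saline, the log2 changes were 1.38 ± 0.24 (adjusted p = 2.31e-05), 1.74 ± 0.24 (adjusted p = 3.98e-08) and 1.46 ± 0.24 (adjusted p = 4.25e-07). Among 10 genes of the lipopolysaccharide receptor pathway, 7 rose with vinblastine, 0 with vincristine and 3 with colchicine at 6 h, and 1, 5 and 9 rose at 24 h, with 0 falls. When the arrays set apart were left out, 5, 3 and 4 rose at 6 h and 3, 7 and 9 at 24 h. Over all genes tested, 15.7%, 2.05% and 4.89% rose at 6 h and 5.29%, 12% and 19.3% at 24 h with all arrays. Without the arrays set apart these shares were 10.3%, 7.2% and 9.47%, and 8.01%, 14.4% and 22.4%. Myd88, the adaptor of Toll-like receptors, changed at 6 h by 0.93 ± 0.17 (adjusted p = 3.97e-05) with vinblastine and 0.65 ± 0.17 (adjusted p = 0.00597) with colchicine, and at 24 h by 0.83 ± 0.17 (adjusted p = 7.17e-05) with vincristine and 1.34 ± 0.17 (adjusted p = 8.23e-10) with colchicine. With the set-apart arrays removed Myd88 was also called higher with vincristine at 6 h, at 0.56 (adjusted p = 7.92e-06), and with vinblastine at 24 h, at 0.36 (adjusted p = 0.00242). Nfkbia, the inhibitor that NF-kB induces, was the gene that rose with vinblastine at 24 h with all arrays, by 1.10 ± 0.25 (adjusted p = 0.00146). Neutrophil sums at 24 h were 612 to 863 in vinblastine hearts, 1344 to 2371 in vincristine hearts and 576 to 7698 in colchicine hearts, against 435.5 to 546 in saline hearts. With vinblastine 0 of 5 neutrophil genes were called at 24 h, and 2 rose without the arrays set apart.

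Cd68 moved little. Intensities at 24 h were 140.3, 145 and 193 in vinblastine hearts, 136, 162.5 and 182.5 in vincristine hearts and 119, 142 and 175 in colchicine hearts, against 111, 124 and 152 in saline hearts. The groups overlapped, with 4 vincristine animals and 2 in each of the others above every saline animal. The fitted changes (log2) were 0.26 ± 0.11 (adjusted p = 0.104), 0.29 ± 0.11 (adjusted p = 0.0293) and 0.15 ± 0.11 (adjusted p = 0.251), and the vincristine call was lost without any of 3 vincristine or 3 saline animals. Without the arrays set apart Cd68 was also called higher with vinblastine, at 0.26 (adjusted p = 0.0338).

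Csf1r at 24 h was 227, 254 and 304 in vinblastine hearts, 217, 226 and 257 in vincristine hearts and 138, 171 and 237 in colchicine hearts, against 247, 265 and 282 in saline hearts. Colchicine animals lay below every saline animal without exception, 5 of 6 vincristine animals did, and vinblastine animals overlapped. Against saline the log2 changes were 0.00 ± 0.14 (adjusted p = 0.998), -0.18 ± 0.14 (adjusted p = 0.364) and -0.58 ± 0.14 (adjusted p = 0.000343). The ligand genes split in the colchicine hearts, where Csf1 rose by 0.42 ± 0.12 (adjusted p = 0.00414) and Il34 changed by -0.47 ± 0.11 (adjusted p = 0.000275). With vincristine Csf1 rose by 0.33 ± 0.12 (adjusted p = 0.0365) and Il34 did not pass the test.

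Of the complement chains, C1qb rose with both vinca alkaloids at 24 h and C1qa did not pass the test. C1qb had 657, 751 and 924 in vinblastine hearts, 492, 620.3 and 759.5 in vincristine hearts and 313.5, 459 and 545 in colchicine hearts, against 346, 388 and 410.3 in saline hearts. All 6 vinblastine and all 6 vincristine animals lay above every saline animal. The log2 changes were 0.98 ± 0.17 (adjusted p = 2.47e-05), 0.66 ± 0.17 (adjusted p = 0.00144) and 0.20 ± 0.17 (adjusted p = 0.364). C1qa had 480.3, 537 and 672 in vinblastine hearts, 343, 415 and 502 in vincristine hearts and 124.5, 252 and 365 in colchicine hearts, against 300.4, 331 and 385 in saline hearts. All 6 vinblastine animals were above every saline animal, and the changes did not pass the test, at 0.67 ± 0.25 (adjusted p = 0.0728), 0.29 ± 0.25 (adjusted p = 0.42) and -0.44 ± 0.25 (adjusted p = 0.147). The common spread over the 14 groups, which the arrays set apart enter, is part of that test. Without those arrays C1qa was called higher with vinblastine at 0.67 (adjusted p = 0.000791) and lower with colchicine at -0.55 (adjusted p = 0.00279).

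The gap between the paired chains lasted to 24 h. The log2 difference of C1qa minus C1qb had a lowest, median and highest value of -0.61, -0.45 and -0.36 with vinblastine, -0.67, -0.61 and -0.37 with vincristine and -1.23, -0.82 and -0.32 with colchicine, against -0.32, -0.15 and -0.04 with saline. All vinblastine and vincristine animals lay below every saline animal. C1qc, the gene of the remaining chain and a neighbour of both, changed at 24 h by 0.86 ± 0.22 (adjusted p = 0.00559) with vinblastine and by 0.51 ± 0.22 (adjusted p = 0.0696) with vincristine, and at 6 h by -0.90 ± 0.22 (adjusted p = 0.0137) with vincristine. Of the 8 tested complement genes outside the set, 4 rose and 1 fell with each vinca alkaloid at 24 h and 5 rose and 1 fell with colchicine. Among all genes 5.29% rose and 4.28% fell with vinblastine, 12% and 18.4% with vincristine, and 19.3% and 25.3% with colchicine. C1s, a protease of the C1 complex, rose by 1.27 ± 0.15 (adjusted p = 3.26e-09), 1.45 ± 0.15 (adjusted p = 1.05e-11) and 1.10 ± 0.15 (adjusted p = 4.78e-09). C1s rose with colchicine without a call for C1qa or C1qb.

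Fcgr2b was bright in most colchicine hearts at 24 h. In the 6 colchicine animals, replicates 1 to 6, its intensities were 20.8, 111.7, 313.4, 107.1, 117.3 and 59.9. Its lowest, median and highest values were 19.1, 23.7 and 33.4 in vinblastine hearts and 26.5, 34.8 and 51.0 in vincristine hearts, against 19.6, 20.7 and 23.1 in saline hearts. The low colchicine animal was replicate 1, the array set apart, and the other 5 lay above every saline animal. Over all genes, the other group nearest to replicate 1 was colchicine 0.2 mg/kg at 24 h, with a distance ratio of 3.20. Fcgr2b was above the filter on 5 of 6 colchicine and 1 of 6 vincristine arrays and on 0 of 6 vinblastine arrays, against 0 of 6 saline arrays. The colchicine difference is given without a fold change or a p, because these arrays brought the gene into the test and the saline level lay below the filter. Among the higher doses the colchicine hearts had the widest range of neutrophil sums at 24 h, and replicate 1 had the lowest sum at 576.4. Of 6 other tested Fc receptor and adaptor genes only Fcgr1a, the high-affinity receptor, was called with all arrays. Its rises were 0.33 ± 0.06 (adjusted p = 4.12e-05), 0.42 ± 0.06 (adjusted p = 6.18e-08) and 0.18 ± 0.06 (adjusted p = 0.00926) with vinblastine, vincristine and colchicine. With the 10 arrays left out 2 of the 6 rose with vincristine and 1 fell with colchicine. Over all genes tested 5.29%, 12% and 19.3% rose with all arrays. Without the 10 arrays 14.4% rose with vincristine and 28.2% fell with colchicine.

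**Figure D3:**
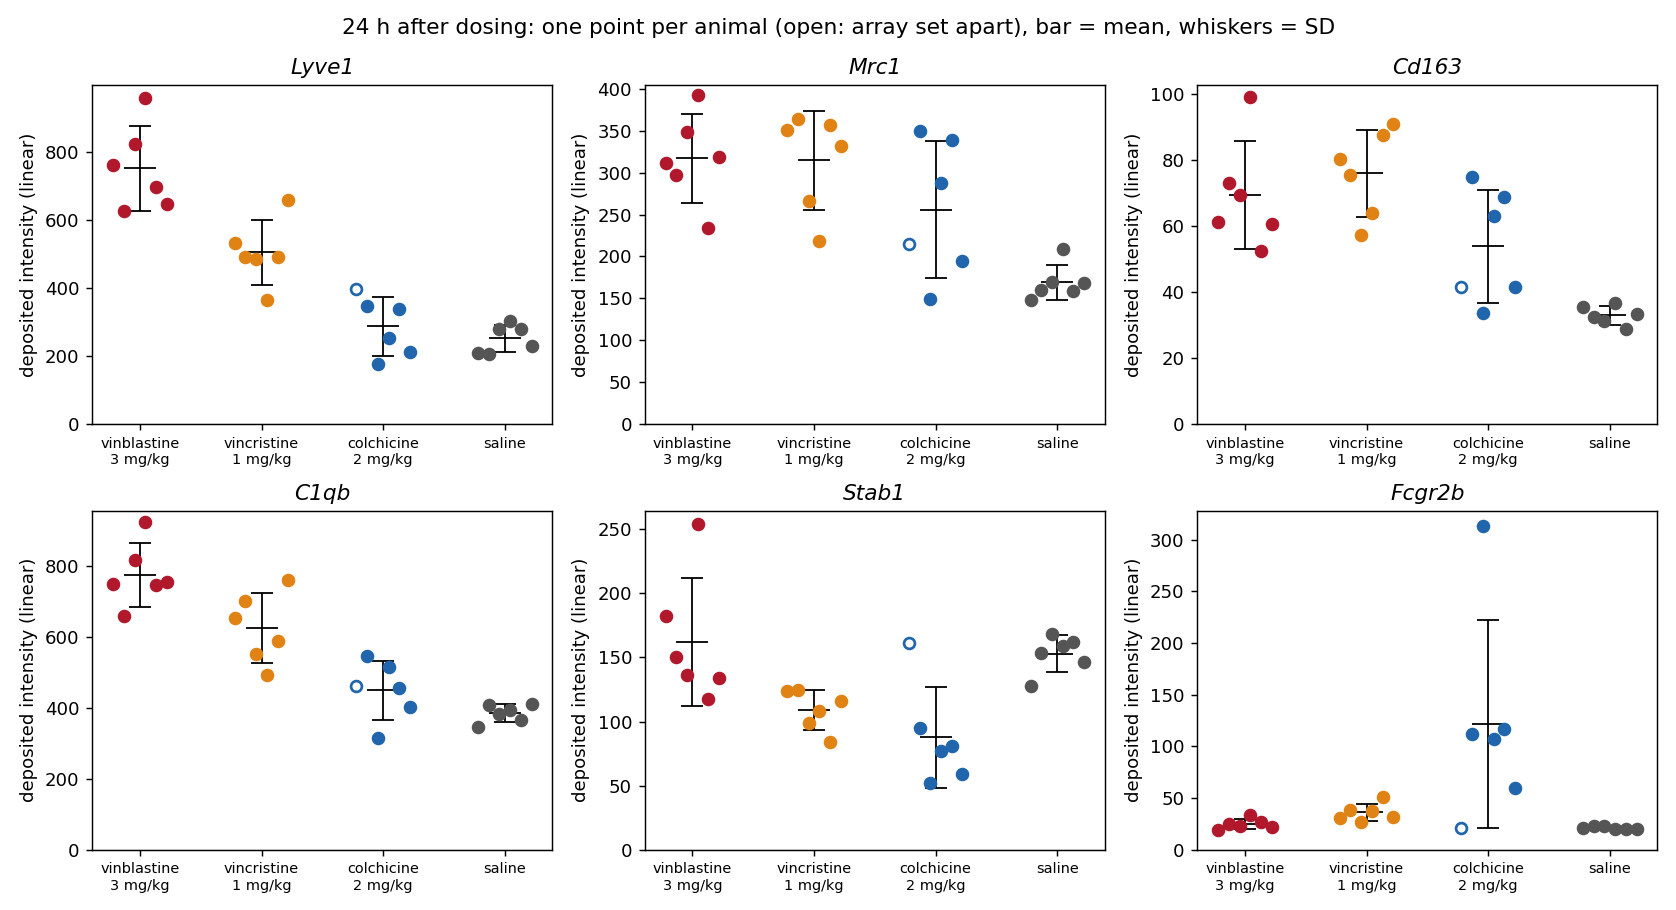
Deposited linear intensity of 6 macrophage markers at 24 h, by animal, for the higher doses and saline; points are animals, open points are arrays set apart, and bars with whiskers are means and SD (n = 6 per group). Lyve1, Mrc1, Cd163 and C1qb lie above all saline animals in every vinblastine and vincristine animal, Stab1 does not, and Fcgr2b is high in 5 of 6 colchicine animals.

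Whether the change at 24 h differed from the change at 6 h was tested directly, by subtracting the early change from the late change. With vinblastine 3 mg/kg 4 members were called, all upward, where 1.78% of all genes were called upward and 2.66% downward. With vincristine 1 mg/kg 6 were called upward, where 3.53% of all genes were upward and 8.73% downward. With colchicine 2 mg/kg 1, Fcgr2b, was called upward, where 6.3% of all genes were upward and 12.6% downward. Once the arrays set apart were dropped, the counts were 8, 8 and 3 upward with 0 downward in each, where 3.25%, 5.14% and 11.5% of all genes were called upward.

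Lyve1 had the largest early-to-late difference among members with the vinca alkaloids, 1.84 ± 0.25 (adjusted p = 3.85e-06) with vinblastine and 1.37 ± 0.25 (adjusted p = 0.000206) with vincristine. C1qa differed by 1.51 ± 0.35 (adjusted p = 0.00709) and 1.22 ± 0.35 (adjusted p = 0.0145), and C1qb by 1.22 ± 0.24 (adjusted p = 0.00143) and 1.27 ± 0.24 (adjusted p = 0.000209). Stab1 differed with vinblastine by 1.14 ± 0.30 (adjusted p = 0.0171), lying below saline at 6 h and overlapping with it at 24 h. Mrc1 and Cd163 differed with vincristine, by 1.24 ± 0.28 (adjusted p = 0.00132) and 1.20 ± 0.22 (adjusted p = 0.000148). Cd68 differed with vincristine by 0.52 ± 0.15 (adjusted p = 0.0134). Cd14 did not pass this test with any compound, at -0.23 ± 0.33 (adjusted p = 0.736), 0.80 ± 0.33 (adjusted p = 0.107) and 0.30 ± 0.33 (adjusted p = 0.601). Its rise was thus present at both times, and a difference between the times was not shown. In colchicine hearts 0 of the other 9 members passed with all arrays, and Fcgr2b entered the test through those same hearts. The colchicine values of Stab1, at 0.29 ± 0.30 (adjusted p = 0.569), and of Csf1r, at -0.04 ± 0.20 (adjusted p = 0.926), did not show a return toward saline.

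**Figure D4:**
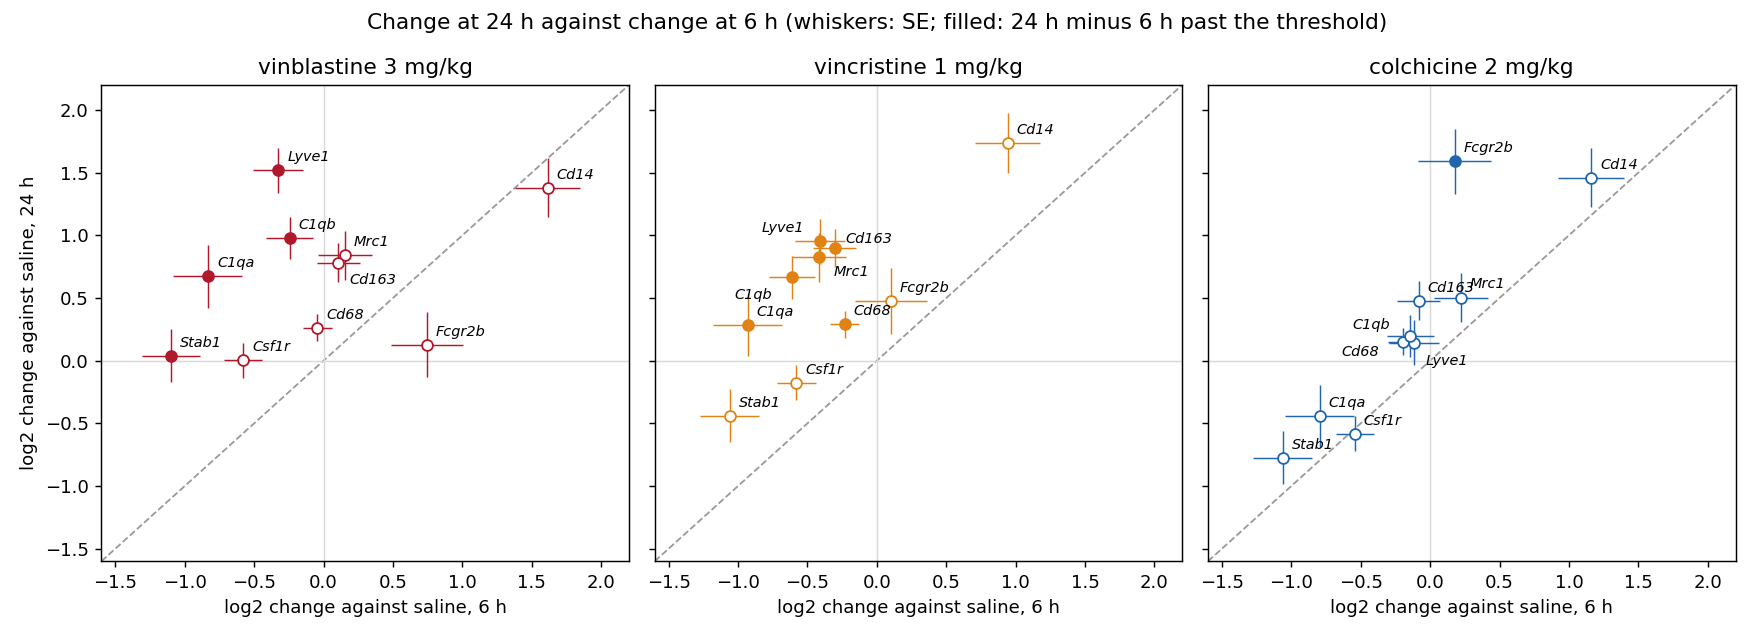
Log2 change against saline at 24 h (vertical axis) against that at 6 h (horizontal axis) for each macrophage marker at the higher dose of each compound; whiskers are SE, the dashed line marks equal change at both times, and filled points passed the test of the difference between times. Most vinblastine and vincristine points lie above the line, 4 and 6 of them filled, and the colchicine points lie near it apart from Fcgr2b, which entered the test through the colchicine hearts at 24 h.

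The lower doses left no called member at either time, with percent of all genes called at 6 h of 0.0353 for vinblastine 0.5 mg/kg, 0 for vincristine 0.1 mg/kg and 0.274 for colchicine 0.2 mg/kg, and 0 for each at 24 h. The largest change was that of Cd14 with vinblastine 0.5 mg/kg, 0.68 ± 0.24 (adjusted p = 0.905) at 6 h and 0.54 ± 0.24 (adjusted p = 1) at 24 h. When the arrays set apart were left out, these were 0.58 (adjusted p = 0.401) and 0.30 (adjusted p = 1), and the array left out at 24 h, replicate 5, had a Cd14 intensity of 368. At 6 h its intensities there were 126, 171 and 310.3, against 83.3, 111 and 136 in saline hearts, and 4 of 6 animals lay above every saline animal. Stab1 was at -0.42 ± 0.21 (adjusted p = 0.917) with vinblastine 0.5 mg/kg and -0.33 ± 0.21 (adjusted p = 0.845) with colchicine 0.2 mg/kg at 6 h. Several lower-dose extremes belong to arrays set apart, such as Stab1 at 54.0 in vinblastine 0.5 mg/kg hearts at 24 h.

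Higher against lower dose was tested within each compound. At 6 h 1 member rose and 2 fell with vinblastine, 1 rose and 3 fell with vincristine, and 1 rose and 2 fell with colchicine, where 5.81% and 2.71%, 1.61% and 1.2%, and 4.47% and 4.78% of all genes rose and fell. With the set-apart arrays removed 5 fell with vinblastine, 7 with vincristine and 3 with colchicine, where 3.97%, 5.08% and 7.34% of all genes fell. At 24 h 5 rose with vinblastine, 5 rose with vincristine, and 3 rose, Fcgr2b among them, and 2 fell with colchicine. The shares of all genes that rose and fell were 3.92% and 1.56%, 12.3% and 11.6%, and 18.8% and 22.7%. Stab1 was lower at the higher dose at 6 h in all 3, by -0.68 ± 0.21 (adjusted p = 0.0312), -0.99 ± 0.22 (adjusted p = 0.00881) and -0.74 ± 0.21 (adjusted p = 0.015). With single arrays left out in turn, these Stab1 calls were lost in 6 of 12, 0 of 11 and 1 of 12 fits. Lyve1 fell with vinblastine at 6 h by -0.54 ± 0.18 (adjusted p = 0.0438) and rose at 24 h by 1.36 ± 0.18 (adjusted p = 1.88e-07). The fall at 6 h is not firm. Its call was lost in 10 of 12 fits with 1 array left out, with limma's adjusted p up to 0.14, and the call at 24 h in 0 of 12. Mean Lyve1 intensities at 24 h were 753 ± 125 at 3 mg/kg and 288 ± 70.0 at 0.5 mg/kg (SD, n = 6 each). Fcgr2b at 24 h was 122 ± 101 at 2 mg/kg of colchicine and 22.2 ± 1.6 at 0.2 mg/kg (SD, n = 6 each). Between saline at 24 h and saline at 6 h 0 of 10 members were called, where 0.00883% of all genes were. At an unadjusted p under 0.05 there were also 0 of 10. The changes were all downward, between -0.30 and -0.04, with a median of -0.13 against 0.042 over all genes. This saline change is subtracted in each 24 h minus 6 h difference, so a downward one adds to that difference.

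The members also varied together from animal to animal within groups. After the group means were taken off, C1qa and C1qb had a correlation of 0.876 over the 82 arrays, and 0.793 over the 72 left without the arrays set apart. Mrc1 and Cd163 had 0.819 and 0.726. Stab1 and C1qa had 0.764 and 0.559. Some values depended on the arrays set apart: Stab1 with Cd14 was -0.493 over 82 arrays and 0.175 over 72, and Csf1r with Cd14 was -0.541 and 0.0646. Cd163 with Fcgr2b was 0.524 and -0.052, and C1qa with Fcgr2b was -0.026 and -0.296. These are descriptions, since genes on 1 array share its RNA and its scaling.

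The order of the group means shows which groups set the pattern. Stab1 had its highest mean in saline hearts at 6 h, 197 ± 55.0, and its lowest in vinblastine 3 mg/kg hearts at 6 h, 81.1 ± 9.69, next to vincristine 1 mg/kg at 6 h, 87.2 ± 32.3, and colchicine 2 mg/kg at 24 h, 87.6 ± 39.5, and at 6 h, 88.4 ± 40.2. These low neighbours did not differ beyond their spread. Lyve1 had its highest mean in vinblastine 3 mg/kg hearts at 24 h and the next in vincristine 1 mg/kg hearts at 24 h, 505 ± 95.3, and its lowest at 6 h with vincristine 1 mg/kg, 225 ± 71.1, and vinblastine 3 mg/kg, 234 ± 49.8. The lowest mean of Cd163 was at 6 h with vincristine 1 mg/kg, 30.5 ± 5.16, and the highest at 24 h with the same dose, 75.9 ± 13.2.

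Genes outside the set whose group means ran most like those of the members were named by Pearson's r of log2 means over the 14 groups. For Stab1 they were Plekhh3, Lrrc75a and C2cd4b at 0.977, 0.975 and 0.972. For Lyve1 they were Rnase1l2, Gstm1 and H19 at 0.951, 0.943 and 0.931. Mrc1 and Cd163 both had Gltp and Gpihbp1 among their nearest 3, at 0.923 and 0.923 for Mrc1 and 0.936 and 0.933 for Cd163. For C1qb the nearest 3 included C1qc at 0.946 and F13a1, a coagulation factor of macrophages, at 0.935. Cd14 was nearest Fabp4 at 0.98, Csf1r nearest Gm2a at 0.96, C1qa nearest Ggta1 at 0.951, Cd68 nearest Inpp5k at 0.896 and Fcgr2b nearest Flrt2 at 0.99. The groups share arrays with the members, and the values are given as a description.

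Other genes of resident macrophages were read at 6 h. Of 11 tested, 4 fell and 1 rose with vinblastine, 4 fell and 0 rose with vincristine, and 2 fell and 1 rose with colchicine. Of all genes 7.67%, 1.25% and 4.37% fell and 15.7%, 2.05% and 4.89% rose in the same order. Without the arrays set apart 7, 6 and 5 of the list fell, where 5.52%, 5.12% and 9.87% of all genes did. Folr2, a folate receptor of the same perivascular macrophages, changed by -0.61 ± 0.13 (adjusted p = 0.000584) with vinblastine and -0.65 ± 0.13 (adjusted p = 0.000632) with colchicine. Slco2b1, an organic anion transporter found on resident macrophages and endothelium, changed by -0.85 ± 0.16 (adjusted p = 0.000104), -0.64 ± 0.16 (adjusted p = 0.0172) and -0.72 ± 0.16 (adjusted p = 0.00195). Clec10a, a lectin of resident macrophages and dendritic cells, ran against them with 0.45 ± 0.12 (adjusted p = 0.00535) with vinblastine and 0.56 ± 0.12 (adjusted p = 0.00146) with colchicine. The list had medians of -0.33, -0.18 and -0.18 with vinblastine, vincristine and colchicine.

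At 24 h, with vinblastine 2 rose and 0 fell, with vincristine 1 rose and 3 fell, and with colchicine 0 rose and 5 fell, with medians of 0.02, -0.10 and -0.11. Of all genes 5.29%, 12% and 19.3% rose and 4.28%, 18.4% and 25.3% fell in the same order. When the arrays set apart were left out, 2 rose and 3 fell with vinblastine and 3 rose and 3 fell with vincristine. Of all genes 8.01% then rose and 7.75% fell with vinblastine, and 14.4% and 20.5% with vincristine. F13a1 rose with the vinca alkaloids by 1.23 ± 0.20 (adjusted p = 1.23e-05) and 0.89 ± 0.20 (adjusted p = 0.000443), after a fall at 6 h with vincristine of -0.67 ± 0.20 (adjusted p = 0.0456). Gas6, a ligand of the receptors by which macrophages take up dead cells, changed by -1.29 ± 0.17 (adjusted p = 3.22e-09) with colchicine and -0.42 ± 0.17 (adjusted p = 0.0486) with vincristine. Maf, a transcription factor of resident macrophages, changed by -0.48 ± 0.14 (adjusted p = 0.00409) with colchicine.

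Genes of monocytes and recruited macrophages had more calls at 24 h than at 6 h with vincristine and colchicine, and so did all genes tested. Whether the increase in the list exceeded that over all genes was not tested. Of 13 tested, 7 rose with vinblastine, 2 with vincristine and 3 with colchicine at 6 h, with 0 falls, where 15.7%, 2.05% and 4.89% of all genes rose. With the set-apart arrays removed 4 rose with each compound at 6 h, where 10.3%, 7.2% and 9.47% of all genes did. At 24 h 4 rose and 1 fell with vinblastine, 7 rose with vincristine and 9 rose with colchicine, where 5.29%, 12% and 19.3% of all genes rose. Lgals3, or galectin-3, a lectin of activated macrophages that other heart cells also make, changed at 24 h by 1.32 ± 0.17 (adjusted p = 1.01e-07), 1.88 ± 0.17 (adjusted p = 4.38e-13) and 1.62 ± 0.17 (adjusted p = 3.14e-11). Gpnmb, a glycoprotein of lysosome-rich macrophages and other cells, changed by 1.32 ± 0.21 (adjusted p = 3.81e-06), 2.01 ± 0.21 (adjusted p = 1.42e-11) and 1.92 ± 0.21 (adjusted p = 3.13e-11). Spp1, or osteopontin, rose with vincristine by 0.97 ± 0.27 (adjusted p = 0.0036) and with colchicine by 1.19 ± 0.27 (adjusted p = 0.000162). Summed intensities of the 16 measured genes at 24 h were 5135 to 8135 in vinblastine hearts, 6435 to 8372 in vincristine hearts and 5005 to 7855 in colchicine hearts, against 3869 to 4359 in saline hearts. None of the treated groups overlapped with saline in this sum. Lyz2, Fn1 and Lgals3, with means of 1663, 891 and 670 over all arrays, were the brightest of the 16 and weigh most in it. Ccr2, Fcgr3a and Arg1 were below the filter. The sum is therefore not a measure of the number of recruited cells. T and NK cell genes, 9 tested, and B cell genes, 3 tested, had 0 calls in all 6 comparisons of a higher dose with saline, and without the arrays set apart 1 T and NK cell gene rose with colchicine at 24 h.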

How the data were processed

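Heart RNA of 82 rats was hybridised to Affymetrix arrays, 1 array per animal, per the labels. The deposited table holds linear intensity values that the authors had normalized before deposit, since the array medians lay between 57.6 and 63.3; the method is not given in the sources used here. Members and gene lists were chosen with earlier results of these data known. Of 31099 probe sets 20826 had 1 symbol, 436 several and 9780 none; the brightest probe set stood for its gene, and a gene was tested where it was above the 40th percentile on at least 5 arrays (11319 genes). A model of group means of log2(intensity + 16) over every array was run in limma 3.58.1 under R 4.3.3 (residual df 68, prior df 4.67), with 25 comparisons and Benjamini-Hochberg adjustment over all genes tested in each. P-values measure the spread between animals, and the number of arrays limits the precision. Tested on simulated data with the layout of vinblastine 3 mg/kg against saline at 6 h (11319 genes), the fit recovered 98% of 100 genes changed by 1 and 88% of 100 changed by 0.5 on the log2 scale, with 15 false calls. The simulated noise was normal and independent between genes, only 200 genes were changed, and no array resembled another group. These rates check the fit and need not hold for the deposited data. Named genes were all 10 members, up to 3 members of each list with the largest called change per higher dose, and the 3 genes most like each member in their group means; Csf1 and Il34 outside that rule were chosen after their values were seen. Arrays were set apart where the distance to their own group was over 1.3 times that to another; leaving them out was chosen after seeing the data. Of the 82 columns 0 were identical. Alternatives were the added constant, quantile normalization, the filter, the groups fitted, a replicate block, array weights, the mean of probe sets, the 6 arrays whose description ends in _2, and each array left out.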

Additional observations from a re-analysis of the deposited data

Results flagged for a closer look

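Among 140 groups of 5 or 6 animals, 1 per member and group, 18 had an animal far from the others by Dixon's test at the 95% level, where chance gives about 1 in 20. Of these, 16 were on the arrays whose profile lay nearer another group. Vinblastine 3 mg/kg at 6 h replicate 1 was high for Mrc1 at 618, Cd163 at 145, C1qa at 397, C1qb at 589 and Fcgr2b at 385. Vinblastine 0.5 mg/kg at 6 h replicate 6 was low for Cd163 at 28.9, Csf1r at 133 and C1qa at 126. Vinblastine 0.5 mg/kg at 24 h replicate 5 was low for Stab1 at 54, C1qa at 156 and C1qb at 288 and high for Cd14 at 368. Colchicine 0.2 mg/kg at 24 h replicate 6 was low for Stab1 at 59.5, Csf1r at 151 and C1qa at 118. Colchicine 2 mg/kg at 6 h replicate 4 was low for Cd14 at 94.8. Outside those arrays, C1qb was low at 296 in colchicine 0.2 mg/kg at 6 h replicate 5, and Cd14 was high at 128 in saline at 24 h replicate 6.

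The change against saline differed between 24 h and 6 h, in a test of the difference itself, for 11 members and compounds. With vinblastine 3 mg/kg the log2 difference was 1.14 for Stab1, 1.85 for Lyve1, 1.51 for C1qa and 1.22 for C1qb. With vincristine 1 mg/kg it was 1.37 for Lyve1, 1.24 for Mrc1, 1.2 for Cd163, 0.522 for Cd68, 1.21 for C1qa and 1.27 for C1qb. With colchicine 2 mg/kg it was 1.41 for Fcgr2b, which entered the test through the colchicine hearts at 24 h and is given as a description. The causes were not tested.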

How the results depend on the processing

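Of 67 single-gene calls, quantile normalization, an added constant of 1 and the replicate block kept all 67 and none turned direction under any setting. The replicate numbers do not pair animals: same-numbered arrays had a median correlation of 0.0177 after group means were removed, against -0.00323 for other pairs, and in 0 of 91 pairs of groups was every same-number value over 0.1. A constant of 64 lost 1, no filter 2, fitting only the compared groups 10, array weights 1, leaving out the arrays whose description ends in _2 lost 7 and leaving out the arrays set apart 1. Leaving out single arrays lost 18 calls at least once. A filter at the 60th percentile dropped Cd163 and left 60 calls, all kept. Among single comparisons of a higher dose with saline and of the 2 times, the count of called members moved by over 1.5 times in 4. For the colchicine 2 mg/kg change at 24 h minus that at 6 h it was 1, against 2 with a constant of 1, 2 with only the compared groups, 2 with the replicate block, 3 with array weights and 3 without the arrays set apart. For vinblastine it was 4, against 8 with array weights and 8 without the arrays set apart. For vincristine 1 mg/kg at 6 h it was 5, against 2 with only the compared groups and 9 without the arrays set apart, and at 24 h it was 6, against 10 with only the compared groups. With 1 array left out the counts were 1 to 5 for vincristine at 6 h, 1 to 3 for the colchicine difference and 4 to 6 for that of vinblastine. For higher against lower dose at 6 h it was 3 with vinblastine, against 6 without the arrays set apart, and 4 with vincristine, against 8. The causes were not tested.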

Other observations

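Markers of other heart cells were read beside the macrophage genes at the higher doses. At 24 h 5.29% of all genes rose and 4.28% fell with vinblastine, 12% and 18.4% with vincristine, and 19.3% and 25.3% with colchicine. Of 11 cardiomyocyte genes tested, 0 were called at 6 h with any compound or at 24 h with vinblastine, 3 fell with vincristine at 24 h and 5 fell with colchicine at 24 h, by small amounts such as Myh6, the main myosin heavy chain of rat ventricle, at -0.24 ± 0.06 (adjusted p = 0.00107) and -0.27 ± 0.06 (adjusted p = 0.000128). Fibroblast genes split at 24 h with colchicine, with 3 of 10 higher and 7 lower: Postn, a matrix protein of activated fibroblasts, changed by 1.28 ± 0.28 (adjusted p = 0.000131) and Lum, a collagen-binding proteoglycan, by -1.74 ± 0.19 (adjusted p = 3.14e-11). With vinblastine at 24 h 2 were higher and 1 lower (3 and 2 without the arrays set apart), and with vincristine 2 and 4. Of 14 blood endothelial genes 7 rose and 1 fell with colchicine at 24 h, with Cldn5, a tight junction protein, at 1.14 ± 0.16 (adjusted p = 2.65e-08) and Emcn, a surface sialomucin, at -0.80 ± 0.12 (adjusted p = 4.54e-08).

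Lysosomal genes, 15 tested, had 3 rises and 0 falls with vinblastine, 2 rises and 3 falls with vincristine and 4 rises and 6 falls with colchicine at 24 h. Rises and falls over all genes were 5.29% and 4.28%, 12% and 18.4%, and 19.3% and 25.3%. Ctsl, a lysosomal cysteine protease, rose by 0.54 ± 0.16 (adjusted p = 0.0218), 1.07 ± 0.16 (adjusted p = 4.62e-07) and 1.40 ± 0.16 (adjusted p = 1.98e-10) in the same order. Lipa, the lysosomal acid lipase, changed by -0.63 ± 0.13 (adjusted p = 0.000158) with vincristine and -0.82 ± 0.13 (adjusted p = 4.68e-07) with colchicine. Of 6 mast cell genes, Cpa3 at -0.44 ± 0.13 (adjusted p = 0.00764) and Cma1 at -0.42 ± 0.11 (adjusted p = 0.00241), both proteases, fell with vinblastine at 6 h, and 0 fell at 24 h, where without the arrays set apart 1 fell with vinblastine and 1 with colchicine. Among all genes 7.67% fell with vinblastine at 6 h. At 24 h without the arrays set apart 7.75% fell with vinblastine and 28.2% with colchicine. Of 4 dendritic cell genes, Itgax rose and Itgae fell at 24 h with vincristine and with colchicine, by 0.44 ± 0.14 (adjusted p = 0.00656) and -0.61 ± 0.11 (adjusted p = 3.68e-06) with colchicine.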
